A study of Rattus norvegicus with 6 samples.

Results

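Exposure of Med14 S983A INS-1 cells to Ex-4 was compared with the untreated state (CON) in the same cells by ATAC-seq, which reads how open chromatin is from the places where the Tn5 transposase inserts into DNA. Every merged peak outside the mitochondrial chromosome was included, 220487 of 220490 merged peaks in all. INS-1 cells derive from a rat insulinoma and serve as a model of beta cells, and the Med14 S983A cells carry the S983A change, serine to alanine, in the endogenous Med14 gene, introduced by CRISPR knock-in. The mutant cells were left untreated or given 10 nM Ex-4 for 1 h after a change to serum-free medium, and the labels do not say separately that CON cells had this change. With 1 library for each condition there is no replicate error, no test was made, and every difference describes these libraries. The sources used here do not say which of the independent mutant lines was used or whether cultures were pooled, and genotype cannot be told apart from differences between lines. WT INS-1 libraries from the untreated state and from the same Ex-4 exposure, and libraries from both genotypes after 1 h with 10 µM FSK, serve as reference below. The labelled cell type was not checked against markers, because peaks were not tied to genes.

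Ex-4 is a stable agonist of the GLP-1 receptor, which in beta cells raises cAMP, activates protein kinase A and leads to phosphorylation of CREB. FSK activates adenylate cyclase directly and so enters the same pathway below the receptor. Mediator links transcription factors bound at enhancers to RNA polymerase II, and Med14 is its scaffolding subunit. The serine changed in S983A is the site that the study assigns to protein kinase A, and the mutant lines allow the response to Ex-4 to be measured when this site cannot be phosphorylated. Enhancers that respond to a signal often become more accessible, while promoters of housekeeping genes and binding sites of the insulator protein CTCF tend to be open in all conditions.

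Values are FPKM, the density of reads over a peak scaled to peak length and to the reads inside the library's own peaks. A 0 marks a peak that is missing from the library's own list of called peaks, not a region without reads. Reads in peaks, recovered from the smallest steps between values, came to 134300000 in the CON library and 147100000 in the Ex-4 library, which had 119024 and 129420 called peaks. The deeper library thus had more called peaks, and the part of depth in the peaks present in only 1 of the libraries was not tested. A mean of 1 FPKM or more across all 6 libraries was required, which 146906 peaks met and 73581 did not. Of the compared peaks, 104986 were called in both libraries, 10959 had a value only with Ex-4 and are referred to as gained, 4078 had a value only in CON and are referred to as lost, and 26873 were listed at 0 in both. A further 10 had a value in both libraries but were missing from a list. Changes are differences of log2(FPKM + 0.5), which understate the change of weak peaks, and peaks that changed at least 2-fold are referred to as opened or closed.

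Ex-4 left most of the accessible genome of Med14 S983A cells close to its basal level. The median change over peaks called in both libraries was -0.020, the quartiles were -0.13 and 0.13, and the 1st and 99th percentiles were -0.63 and 0.92. Opened peaks nevertheless outnumbered closed ones. Among peaks called in both libraries, 776 were opened (0.739%) and 104 were closed (0.0991%). At least 3-fold, 76 were opened and 2 closed. At least 4-fold, 17 were opened and none closed, while 4195 and 1418 passed a 1.5-fold limit. The largest rise was 3.40 and the largest fall -1.84.

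The direction of this imbalance depended on how the libraries were scaled. Opened peaks made up 88.2% of the changed peaks called in both libraries with the deposited scaling, and 90.7% after the median change was set to 0. Quantile normalization over all compared peaks left 406 opened and 1856 closed, so that the opened share fell to 17.9%. The libraries differ in their number of zeros, which enter these ranks, and the part of the zeros in this result was not tested. Restricted to peaks called in both libraries, the same normalization gave 641 opened and 161 closed, a share of 79.9%. Over all compared peaks, where a 0 counts as a change, 11565 were opened (7.87%) and 4110 closed (2.8%). Of these, 10780 of the opened were gained and 4005 of the closed were lost, so that the count over all peaks is mainly a count of peak calls. Below the limit of 1 FPKM, 9983 peaks were gained and 6470 lost, and the 3524 called in both libraries included 35 opened and 32 closed.

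**Figure D1:**
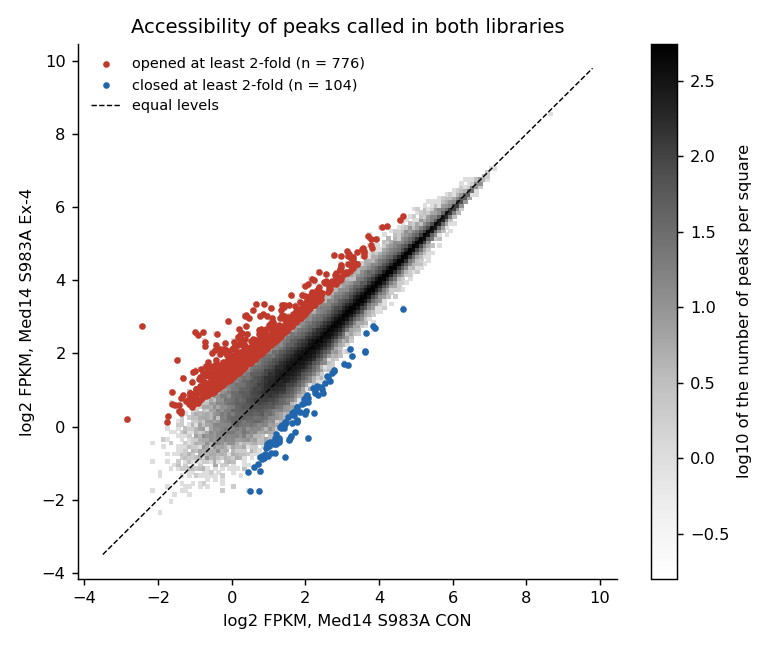
Level of each peak called in both libraries, as log2 FPKM in Med14 S983A CON (x axis) and Ex-4 (y axis), with the number of peaks per square in grey on a log10 scale, the 776 opened peaks in red and the 104 closed peaks in blue. The cloud follows the line of equal levels, and most coloured points lie at the low end of it on the opened side.

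Counting error was small beside these changes. A peak called in both libraries had a median of 399 reads in CON, and an opened peak 94.5 reads in CON and 318 with Ex-4, for a counting error of 10.3% on the CON value. The 2-fold rule chose the changed peaks from these same values, so at such read counts their intervals could hardly overlap. The exact Poisson intervals of the FPKM in both libraries did not overlap for any of the 776 opened or 104 closed peaks. The same held for 14342 peaks (13.7%) that were higher with Ex-4 and 13346 (12.7%) that were lower. These intervals cover counting error only, and variation between cultures is unknown. Peaks lay close to the 2-fold limit on either side. The opened peak nearest to it, at chr12:594717-595018 of rn6, went from 1.14 to 2.78 FPKM, and the nearest peak outside it, at chr2:178504772-178505944, from 15.6 to 31.6 FPKM.

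The 6 peaks with the largest rise had CON levels between 0.186 and 1.58 FPKM, and a ranking by the rise itself favours low CON levels. All coordinates are in rn6, and gene names were not assigned because no annotation of this build was used here. The largest rise was at chr17:57092970-57094371, a peak of 1401 bp. Its level was 0.186 FPKM in CON (95% Poisson interval 0.13 to 0.259) against 6.75 FPKM with Ex-4 (6.40 to 7.11) and 33.5 FPKM after FSK, a ratio of Ex-4 to CON of 36.3 (26.0 to 52.3). WT cells, listed at 0 in CON, had 3.60 FPKM with Ex-4 and 20.7 FPKM after FSK. In both genotypes the level was higher with FSK than with Ex-4.

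The second largest rise was at chr4:58064560-58066209, whose mutant levels were 0.501 FPKM in CON, 6.04 FPKM with Ex-4 and 18.8 FPKM after FSK. The same peak is listed at 0 in WT CON and had 2.30 FPKM in WT Ex-4 and 13.6 FPKM in WT FSK. The next 4 peaks all lay in one stretch of chromosome 1 described below. Their levels in Med14 S983A were between 0.529 and 1.58 FPKM in CON and between 5.70 and 10.2 FPKM with Ex-4. All 6 peaks with the largest rise were listed at 0 in WT CON and had a value in WT Ex-4, between 2.30 and 5.31 FPKM.

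Few opened peaks had a high level at rest. The opened peak with the highest Ex-4 level, chosen after its values were seen, was chr4:125813135-125813943. Its level in CON, Ex-4 and FSK was 25.1, 54.1 and 71.3 FPKM in Med14 S983A, and 17.5, 41.0 and 60.7 FPKM in WT. Both genotypes therefore opened this region to a like extent, with changes of 1.09 and 1.20. The longest opened peak, chr7:116774239-116776822 with 2583 bp, had 1.67 FPKM in CON and 4.72 with Ex-4, against 4.13 and 9.25 in WT. The next longest, chr9:82442307-82444711 with 2404 bp, had 9.45 FPKM in CON and 24.3 with Ex-4, against 4.27 and 9.17 in WT. The mutant stood below WT at the first of these peaks and above it at the second, in CON and with Ex-4 alike. The third longest, chr4:177447330-177449534 with 2204 bp, had 0.138 FPKM in CON and 1.15 with Ex-4, against 0.171 and 0.149 in WT, where FSK brought it to 5.27 FPKM.

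Opened peaks were of intermediate length. Their median length was 534 bp, with 10th and 90th percentiles of 329 and 853 bp, against a median of 522 bp and percentiles of 203 and 1105 bp for all peaks called in both libraries. Opened peaks were therefore rare among both the shortest and the longest peaks called in both libraries. On the short side, this depends in part on the split by calls. Gained peaks up to 150 bp had a median of 3.84 FPKM with Ex-4 (72 reads), and those above 600 bp 0.77 FPKM (83 reads). A short peak that is weak in CON can thus be listed at 0 and count as gained, not opened. When the peaks were divided by length into 10 classes of equal size, the opened share was 0.0948% from 99 to 203 bp, reached 1.35% from 523 to 611 bp and was 0.295% from 1106 to 3550 bp. Closed peaks had a median length of 486.5 bp and none was longer than 1109 bp. All lengths are those of peaks merged from the 6 libraries, so they may depend on the change itself, which was not tested.

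Basal level was read from WT CON, since the CON library of the mutant itself enters the change and a low value there favours a call. Among the 92444 peaks called in both mutant libraries and in WT CON and WT Ex-4, 559 were opened (0.605%) and 82 closed (0.0887%). The opened share was highest, at 2.78%, in the class of peaks with the lowest WT CON level, of 10 classes of equal size, 0.171 to 2.32 FPKM, where 257 of 9252 peaks were opened. It was 0.941% in the next class and no higher in any later one. In the class with the highest WT CON level, none of 9243 peaks was opened, and the exact 95% upper limit of the share was 0.0399%. At a given WT CON level, opened peaks were longer than the others in all but the strongest peaks. Length is that of the peak merged from the 6 libraries, including those with Ex-4 and FSK. It may thus depend on the opening itself, which was not tested. From 2 to 4 FPKM, the median length was 551.5 bp for opened peaks and 408 bp for the others, and from 4 to 8 FPKM it was 609 and 486 bp. Above 16 FPKM, only 8 peaks were opened, with a median of 732 bp against 809 bp.

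**Figure D2:**
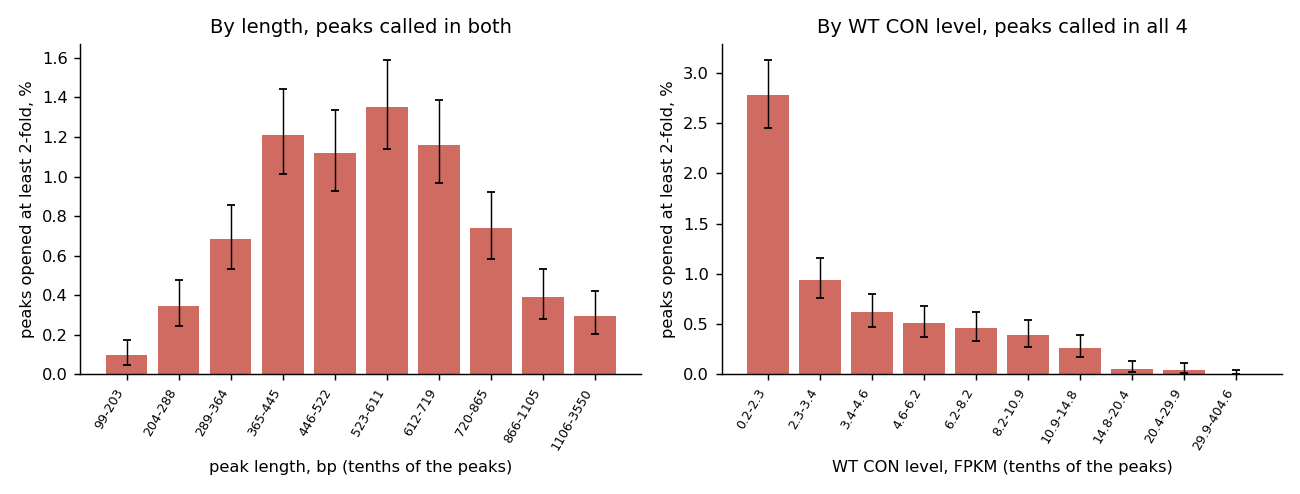
Share of peaks opened at least 2-fold by Ex-4 in Med14 S983A (y axis, percent) in 10 classes of equal size by length in bp, over peaks called in both libraries (left), and in 10 such classes by WT CON level in FPKM, over peaks called in all 4 CON and Ex-4 libraries (right), with exact binomial 95% intervals that cover counting of peaks only. The share is highest at middle lengths, 1.35% from 523 to 611 bp, and at the lowest WT CON levels, 2.78%. Short peaks that are weak in CON can be missing from the CON list and then count as gained.

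In the other libraries, opened peaks showed graded levels. Their median mutant level was 1.44 FPKM in CON and 4.14 FPKM with Ex-4, values that follow from how the peaks were chosen, and 8.74 FPKM after FSK. In WT, which the choice did not use, the median in CON, Ex-4 and FSK was 1.59, 3.03 and 11.0 FPKM. Uncalled peaks enter these medians as 0. Over the 548 opened peaks called in all 6 libraries, the medians in the same order were 2.55, 4.1 and 13.2 FPKM in WT and 1.44, 4.12 and 8.78 FPKM in the mutant. The order CON, Ex-4, FSK was the same in WT with and without the zeros. All peaks called in both libraries had medians between 5.99 and 6.80 FPKM in the 6 libraries. The mutant FSK level is given beside the others without a comparison of changes, because Ex-4 and FSK share the CON library.

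Most opened peaks were called in the other libraries too. Of the 776, 548 (70.6%) were called in all 6 libraries, 114 (14.7%) in all but WT CON, 66 (8.51%) in the 3 mutant libraries and WT FSK, and 28 (3.61%) in the 3 mutant libraries only. WT CON had the lowest share of them, 72.8%, while WT FSK had 96.3% and Med14 S983A FSK 98.2%. The corresponding shares of all peaks called in both libraries were 90.1%, 92.3% and 93.6%. Opened peaks were therefore less often on the WT CON list, and slightly more often on the FSK lists, than peaks in general.

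**Figure D3:**
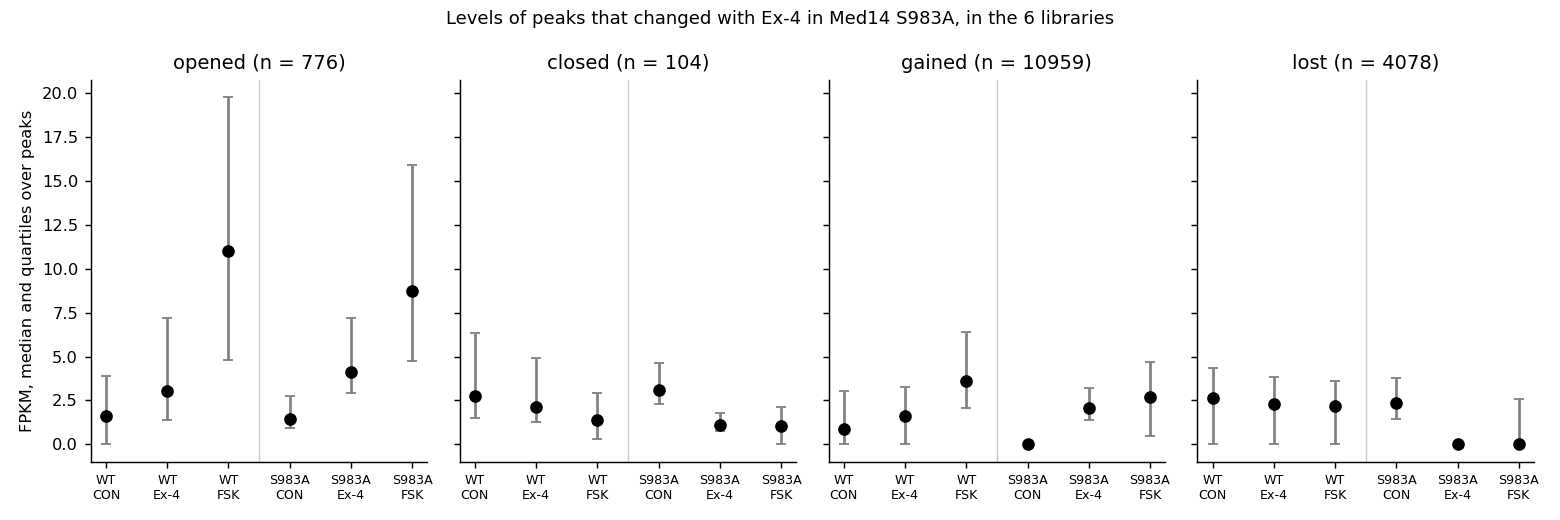
Median FPKM (points) with the quartiles over peaks (bars) in the 6 libraries, for peaks opened, closed, gained and lost with Ex-4 in Med14 S983A, whose CON and Ex-4 values chose the groups. Opened peaks have medians of 1.59, 3.03 and 11.0 FPKM in WT CON, Ex-4 and FSK, and closed peaks medians of 2.75, 2.11 and 1.40 FPKM, with uncalled peaks counted as 0.

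WT cells offer a reading of the same treatment from libraries that share nothing with the mutant pair. Over the 559 opened peaks called in all 4 libraries, the median WT change was 0.62, with a 95% interval from order statistics of 0.55 to 0.67, and 501 of them (89.6%) were higher with Ex-4 in WT. Over the 91803 peaks that were neither opened nor closed, the median WT change was -0.021 and 43.8% were higher. The peaks opened in the mutant were thus mostly higher with Ex-4 in WT too, by less than in the libraries that chose them. In WT, 143 of the 559 (25.6%) were opened and none was closed, where 389 of the 92444 peaks (0.421%) were opened in WT in all. The shared 143 peaks were 36.8% of the WT list. Conversely, the 389 peaks opened in WT had a median change of 0.86 in Med14 S983A, and 381 of them (97.9%) were higher with Ex-4 there. A peak chosen in 1 pair of libraries has a larger change in that pair than in another by the choice itself, so these medians do not give a difference between genotypes.

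The opened peaks differed among themselves in their WT level. The 143 peaks also opened in WT had medians of 3.0 FPKM in WT CON and 2.20 FPKM in the CON library of the mutant. The 358 peaks (64.0%) that were higher in WT by less than 2-fold had medians of 2.51 and 1.42 FPKM in these libraries. The 58 peaks (10.4%) that were not higher in WT had medians of 2.24 and 1.89 FPKM in WT CON and Ex-4, and of 0.732 and 2.30 FPKM in the mutant. In this last group, the median of the mutant with Ex-4 lay near that of WT in CON. These CON levels are a description only. A low value in the mutant CON library favours a call as opened, and a high value in WT CON favours a place among the peaks not higher in WT.

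The 3 largest mutant changes of this last kind, chosen after their values were seen, differed in their WT level. At chr3:7777806-7778635, the level was 0.611 FPKM in Med14 S983A CON and 3.14 with Ex-4, while WT had 5.05 and 4.63 FPKM. At chr17:16110580-16111609, it was 4.54 FPKM in Med14 S983A CON and 12.8 with Ex-4, and 20.6 and 17.7 FPKM in WT. At both, the mutant with Ex-4 stayed below WT CON. The third was chr4:177447330-177449534, given above, whose CON levels of 0.138 and 0.171 FPKM in the mutant and WT lay close together. All 3 had their highest mutant level with FSK, between 5.67 and 28.7 FPKM, whereas the median over the 58 peaks was 2.09 FPKM with FSK and 2.30 FPKM with Ex-4.

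**Figure D4:**
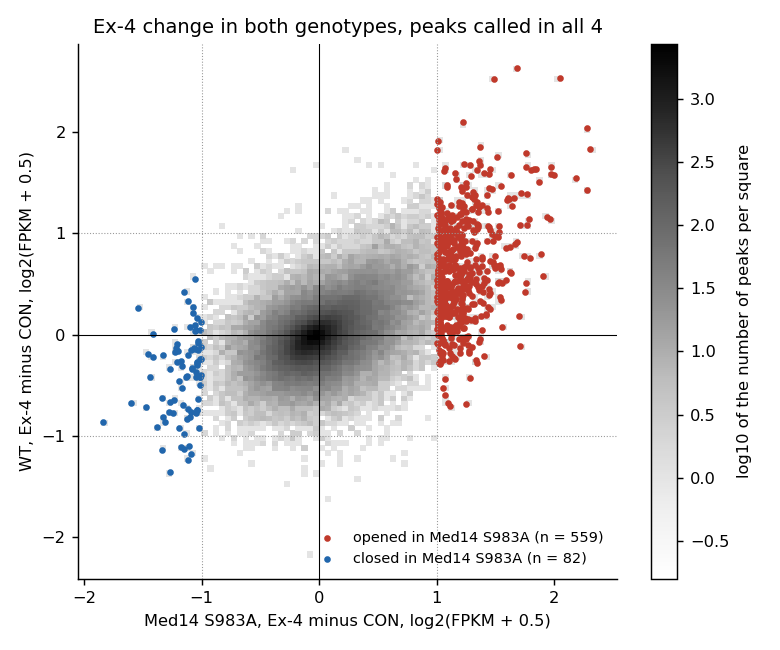
Change with Ex-4 as a difference of log2(FPKM + 0.5) in Med14 S983A (x axis) and in WT (y axis) for the 92444 peaks called in all 4 libraries, with the number of peaks per square in grey on a log10 scale, the 559 opened peaks in red and the 82 closed peaks in blue; dotted lines mark 2-fold changes. Most red points lie above 0 in WT, with a median of 0.62, and none lies at or below the dotted line at -1.

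Closed peaks were few, and their median level was lower with Ex-4 than in CON in WT as well. The medians over the 104 peaks in CON, Ex-4 and FSK were 3.10, 1.08 and 1.03 FPKM in Med14 S983A, where the first 2 follow from the choice, and 2.75, 2.11 and 1.40 FPKM in WT. These medians count uncalled peaks as 0, and over the 43 closed peaks called in all 6 libraries they were 3.18, 1.27 and 1.91 FPKM in the mutant and 4.47, 2.65 and 2.53 FPKM in WT. In the mutant, the FSK median thus lay below the Ex-4 median only with the zeros included. In WT, the 82 closed peaks called in all 4 libraries had a median change of -0.36 (-0.50 to -0.25), and 15 (18.3%) were higher with Ex-4. Only 7 of them (8.54%) were closed in WT, which also closed 82 peaks (0.0887%), and no peak was opened in one genotype and closed in the other. By calls, 43 of the 104 closed peaks (41.3%) were on all 6 lists, 24 (23.1%) on all but that of Med14 S983A FSK, and 12 (11.5%) on the 4 CON and Ex-4 lists but on neither FSK list.

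The largest fall was at chrX:71925943-71926713. This peak had 4.20 FPKM in CON (3.81 to 4.61) and 0.812 FPKM with Ex-4 (0.655 to 0.996) and is listed at 0 with FSK in Med14 S983A. The WT levels in CON, Ex-4 and FSK were 21.1, 11.3 and 2.79 FPKM. The level was lower with Ex-4 than in CON in both genotypes, and the mutant had less than WT in CON and with Ex-4. A like pattern was found at chr10:14771352-14772319, with 12.3 FPKM in CON, a change of -1.47 with Ex-4 and 3.72 FPKM after FSK in Med14 S983A, and 36.5, 22.0 and 4.95 FPKM in WT. The peak at chr5:51455393-51456087 went from 2.70 to 0.558 FPKM with Ex-4, and from 4.10 to 2.37 FPKM in WT. An exception among the 6 largest falls was chr5:147401818-147402649, with 4.68, 1.28 and 2.83 FPKM for CON, Ex-4 and FSK in the mutant, and 1.21, 1.55 and 1.14 FPKM in WT. The remaining 2, at chr9:15800887-15801505 and chr6:127301605-127302120, went from 1.69 to 0.297 and from 3.30 to 0.897 FPKM, with WT changes of -0.19 and -0.42.

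Gained and lost peaks were of another kind. They were short, with median lengths of 262 bp (gained) and 212 bp (lost), and weak, with a median of 2.08 FPKM with Ex-4 for gained peaks against 5.72 FPKM for all peaks called in that library. Gained peaks made up 7.46% of the compared peaks and lost peaks 2.78%. Both shares were highest in the shortest peaks. Up to 150 bp, 13.6% of the peaks were gained and 9.18% lost, and above 600 bp 1.64% and 0.526%. Among the 361 gained peaks with at least 10 FPKM, the median length was 146 bp, and 23 were longer than 300 bp. Among the 221 such lost peaks, it was 123 bp, and 12 were longer than 300 bp.

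The WT values of gained peaks differed with length. In WT Ex-4, 28.8% of the gained peaks up to 150 bp were called, and 55.3%, 73.9% and 93.0% of those from 150 to 300, 300 to 600 and above 600 bp. Where both WT libraries had called a gained peak (5064 peaks), the median WT change was 0.043, against -0.11 over 2402 lost peaks. By length it was -0.092 up to 150 bp and 0.10 above 600 bp for gained peaks, while for lost peaks it stayed between -0.091 and -0.12 in the 4 length classes. The WT libraries thus separated gained from lost peaks by a small amount in the long peaks and not in the shortest ones. FSK lists held 88.4% (WT) and 75.3% (Med14 S983A) of the gained peaks and 73.4% and 45.4% of the lost peaks. Peaks on a single list are largely removed by the limit on the mean of the 6 libraries, so such shares describe the peaks that passed it.

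The strongest gained peaks illustrate how far a 0 can stand from a low level. The gained peak with the highest Ex-4 level, chr18:79770860-79770965, is 105 bp long and had 35.1 FPKM with Ex-4 (32.2 to 38.2) and 43.0 FPKM after FSK, and is listed at 0 in the CON libraries of both genotypes and in WT Ex-4. At chr9:14552770-14552907, with 137 bp, the level was 27.8 FPKM with Ex-4 and 27.5 FPKM after FSK, and between 22.8 and 23.4 FPKM in the 3 WT libraries. This short peak had nearly the same level in every library that called it, and only the mutant CON library listed it at 0. The longest of the 6 strongest, chr7:12406508-12406978 with 470 bp, behaved otherwise. Its mutant levels were 31.2 FPKM with Ex-4 and 71.1 FPKM after FSK, and its WT levels in CON, Ex-4 and FSK were 17.6, 49.3 and 78.3 FPKM, a WT change of 1.46. The other 3, of 98 to 134 bp, had between 27.5 and 33.7 FPKM with Ex-4 and are listed at 0 in WT CON and WT Ex-4.

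The 6 strongest lost peaks were all between 98 and 116 bp long. Their CON levels lay between 25.9 and 50.6 FPKM, and 5 of the 6 are listed at 0 in WT CON and WT Ex-4. The exception, chr9:10803181-10803297, had 40.6 FPKM in the mutant CON library and 38.2 and 34.9 FPKM in WT CON and Ex-4. Longer lost peaks, chosen after their values were seen, included chr5:156873644-156873998, with 19.2 FPKM in the mutant CON library and 30.1 and 12.8 FPKM in WT CON and Ex-4, and listed at 0 with FSK in both genotypes. Another, chr18:29211046-29211362, had 15.1, 37.5 and 21.1 FPKM in the same libraries and is also listed at 0 with FSK in both genotypes. At these peaks the WT level was lower with Ex-4 than in CON, with WT changes of -1.20 and -0.81. The third by CON level, chr14:5101621-5101924, had 14.8 FPKM in Med14 S983A CON, is listed at 0 with Ex-4, has 16 FPKM with FSK and is listed at 0 in all WT libraries.

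Along the chromosomes, opened peaks were spread widely. Each of chromosomes 1 to 20 and X held between 14 and 115 of them, and all peaks called in both libraries lay on these chromosomes. The opened share lay between 0.476% (chromosome 19, exact 95% interval 0.260 to 0.797) and 1.01% (chromosome 16, 0.712 to 1.39). The intervals of chromosomes 19 and 16 overlapped. The interval of chromosome 1 (0.974%, 0.804 to 1.17) lay above those of chromosomes 3 (0.428 to 0.795), 13 (0.307 to 0.773) and 19. These intervals treat peaks as independent, although some opened peaks lay in groups, so they do not rank the chromosomes. Chromosome 1 holds the largest group of neighbouring opened peaks, described below, with 32 of its 115 opened peaks. In 516 runs of 200 neighbouring peaks called in both libraries, 152 had no opened peak and the median was 1. No run had a median change past 1.5-fold in either direction. The lowest was -0.091, at chr18:53975203-59049524, and the highest 0.17, at chr4:57799549-62374268, a run with 10 opened peaks.

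Opened peaks nevertheless had other opened peaks nearby more often than the remaining peaks did. Another opened peak lay within 10 kb of 7.99% of the opened peaks and of 1.04% of the others, and within 50 kb of 15.5% and 4.62%. Without the largest group on chromosome 1, the shares for opened peaks were 4.57% and 11.8%, against 1.03% and 4.61% of the others. No closed peak had an opened peak within 10 kb, and 3.85% had one within 50 kb. Peaks that were not opened themselves had a median change of 0.065 within 5 kb of an opened peak, 0.049 from 5 to 10 kb, 0.013 from 25 to 50 kb and -0.030 beyond 1000 kb. In WT, the medians over those of these peaks also called in WT CON and WT Ex-4 were 0.026, 0.041, 0.0013 and -0.026. They were 425 of 530 peaks within 5 kb, and 48443 of 54704 beyond 1000 kb. The gradient with distance was thus small in both genotypes and had the same direction at its ends.

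When opened peaks no more than 50 kb apart were joined, a distance chosen after values of these data were known, 656 stood alone, 30 pairs formed, and 8 groups held 3 or more peaks, 60 peaks (7.73%) in all. The largest group by far was at chr1:52571233-52817917. In these 247 kb, 32 of the 43 peaks called in both libraries were opened (74.4%), 63 peaks were gained, and none was closed or lost. The other 11 had a median change of 0.58 and 9 of them were higher with Ex-4. Of the 11812 peaks called in both libraries on chromosome 1, 115 were opened (0.974%), and 32 of these were in this group.

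Over the 32 opened peaks of this group, the median mutant level was 1.55 FPKM at rest, 6.46 FPKM with Ex-4 and 14.6 FPKM after FSK. The median ratio of Ex-4 to CON was 4.74, and the ratios ranged from 2.16 to 10.8. In WT, 19 of the 32 are listed at 0 in CON, and the median was 3.28 FPKM with Ex-4 and 13.4 FPKM after FSK. The 13 called in all 4 CON and Ex-4 libraries had a median WT change of 1.48, and 10 of them were opened in WT. The mutant CON and Ex-4 medians follow from how the peaks were chosen, and the WT medians include zeros, so the genotypes are not compared on them.

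More peaks of the stretch were called with Ex-4, and more again with FSK. Of the 183 compared peaks there, 29 were called in WT CON, 80 in WT Ex-4 and 168 in WT FSK, and 43, 106 and 145 in the corresponding mutant libraries. The limit on the mean of the 6 libraries favours peaks called with FSK, since a high FSK level alone can pass it. Of the 183, 77 are listed at 0 in both mutant CON and Ex-4, and 69 of these were called in WT FSK. Reads in peaks came to 151500000 in WT CON and 251200000 in WT FSK. The part of depth in these counts was not tested. In WT, 53 peaks of the stretch were gained and 1 was lost with Ex-4. Of the 63 peaks gained in the mutant, 33 were also called in WT Ex-4, 57 in WT FSK, and 5 in WT CON. The mean FPKM over the stretch, weighted by peak length, was 2.57, 6.68 and 14.2 in the mutant for CON, Ex-4 and FSK, and 1.90, 4.54 and 14.3 in WT. This mean takes uncalled peaks as 0, so it moves with the number of calls. Over the 21 peaks called in all 4 CON and Ex-4 libraries, the median was 2.66 FPKM in CON and 8.15 FPKM with Ex-4 in the mutant, and 1.88 and 6.52 FPKM in WT. Of these 21 peaks, 13 are opened peaks, so the mutant medians still follow in part from the choice and give no comparison of genotypes.

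Within the stretch, weak peaks in CON had the largest ratios, which contain the CON level themselves. At chr1:52661540-52662829, the level was 0.578 FPKM in CON (0.470 to 0.703), 6.01 FPKM with Ex-4 (5.67 to 6.37) and 12.5 FPKM after FSK, a ratio of 10.4 (8.48 to 12.9), and WT reached 3.90 FPKM with Ex-4 and 13.1 FPKM after FSK. At chr1:52643046-52643723, it was 0.935, 7.39 and 25.3 FPKM, and WT had 3.27 and 24.4 FPKM with Ex-4 and FSK. The opened peak with the highest level, at the upper edge of the stretch (chr1:52817081-52817917), had 7.82, 21.2 and 37.4 FPKM in the mutant and 9.68, 24.3 and 46.5 FPKM in WT. Its levels in CON and with Ex-4 were similar in both genotypes.

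**Figure D5:**
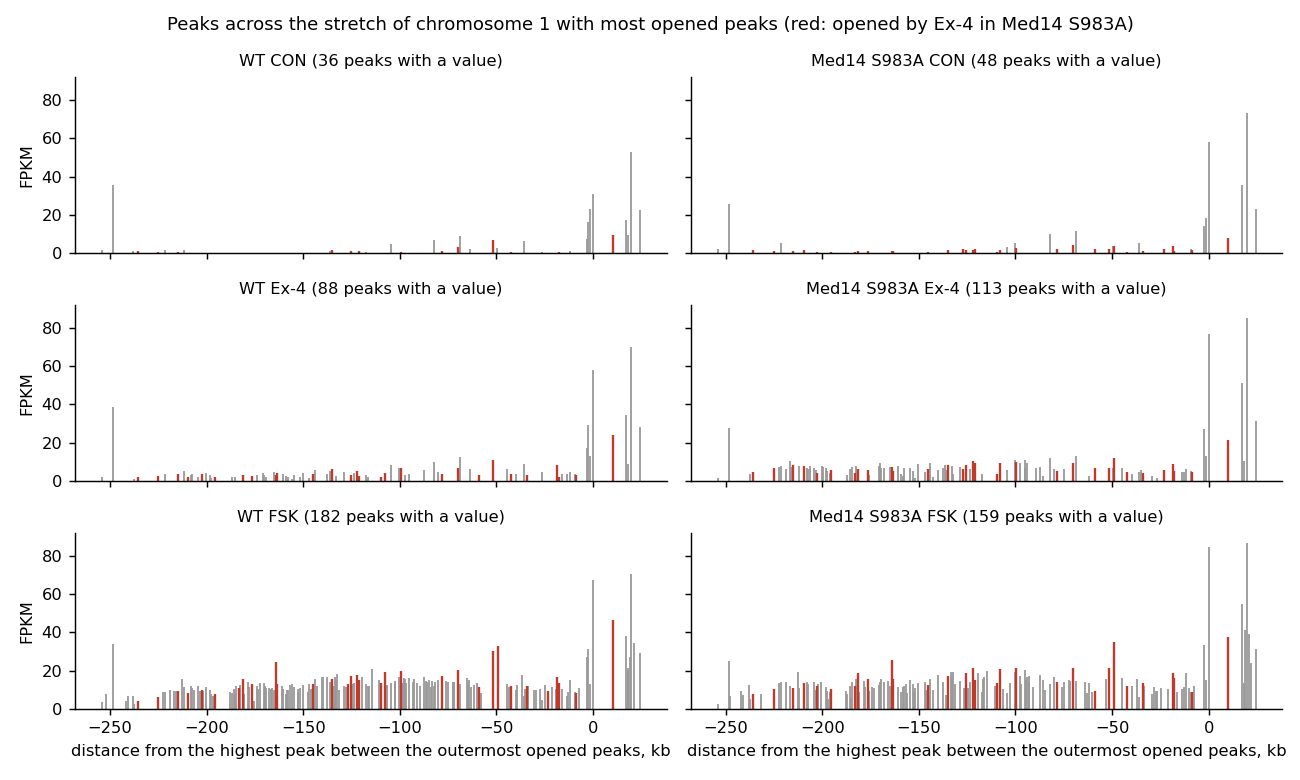
FPKM (y axis) of each peak in the stretch of chromosome 1 with most opened peaks and 20 kb on either side, by distance in kb from the highest peak between the outermost opened peaks (x axis), in the 6 libraries, with peaks opened in Med14 S983A in red and others with a value in grey. Few peaks stand above 0 in CON, many do with Ex-4 and most with FSK, with medians of 1.55, 6.46 and 14.6 FPKM over the opened peaks in the mutant. The limit on the mean of the 6 libraries admits peaks that are high with FSK alone.

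The other groups were smaller. At chr9:111128103-111180971, 7 of 9 peaks called in both libraries were opened, with mutant medians of 1.86, 4.99 and 8.92 FPKM for CON, Ex-4 and FSK, and all 7 are listed at 0 in WT CON and 3 were called in WT Ex-4. At chr4:58333379-58494779, 6 of 37 peaks were opened, and of the other 31, 30 were higher with Ex-4, with a median change of 0.39. All 3 peaks called in both libraries at chr14:3279262-3291437 were opened, and WT opened all 3 as well. In windows of 250 kb, the median number of gained peaks was 1 and the 99th percentile 6. The window with the most, chr1:52500001-52750000, had 56 gained and 2 lost peaks, and the next, chr1:129000001-129250000, had 23 and 3. The WT pair gained 48 and 23 peaks in these windows and lost 1 in each. At least 10 gained peaks were found in 12 of 10564 windows, and no window had as many lost peaks.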

How the data were processed

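ATAC-seq was performed on tagmented nuclei, with 1 library for each of 6 conditions. Per the paper's methods, reads were trimmed (Trim Galore), mapped to rn6 (bwa mem), cleared of mitochondrial, low-quality and duplicate alignments (samtools) and used for peak calling per library (macs2). The authors deposited FPKM over peaks merged from the 6 libraries, made with HOMER per the file header, with the lists in which each peak was called. A few peaks on the mitochondrial chromosome, 3 in number, were left out. Whether the FPKM use fragments shifted for the Tn5 cut site is not stated in those sources.

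Reads in peaks were recovered from the steps of FPKM times length, where 100% of the low values checked lay within 0.15 of a whole step. A step may be a read or a read end, and intervals then cover counting error only. From the FPKM, log2(FPKM + 0.5) differences between Ex-4 and CON were computed where the mean reached 1 FPKM, with a 2-fold rule and no test. Named peaks are the 6 largest rises and 6 largest falls among peaks called in both libraries, the 6 highest gained and 6 highest lost peaks and the 3 longest opened peaks; others are marked as chosen after their values were seen. The members, rules and comparisons were chosen with earlier results of these data known. The groups of neighbouring peaks, the 250-kb windows and the split of opened peaks by their WT change were chosen after values were seen. Alternatives were other pseudocounts, filters, scalings, fold limits and run sizes. The calculation was tested on simulated reads. Genes near peaks, promoter and distal classes, sequences and motifs were not analysed here, since the reference used is of another build. Computation used pandas 2.3.3 and numpy 2.4.6 under Python 3.11.15, with matplotlib 3.10.9 for plots and scipy 1.17.1 for intervals.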

Additional observations from a re-analysis of the deposited data

Results flagged for a closer look

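At the peak on chromosome 5 from 147401818 to 147402649, the mutant and WT pairs moved in opposite directions with Ex-4, by -1.54 in Med14 S983A and 0.27 in WT. At the peak on chromosome 4 from 177447330 to 177449534, the change was 1.37 in Med14 S983A, where the level went from 0.138 to 1.15 FPKM, and -0.048 in WT, where it went from 0.171 to 0.149 FPKM. With 1 library per condition, neither difference was tested.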

How the results depend on the processing

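No paired analysis was possible because there was a single library per condition, and for the same reason no replicate could be left out. None of the medians compared changed sign under an alternative. Counts have no sign, but the excess of opened over closed peaks called in both libraries turned around with quantile normalization over all compared peaks. Peaks opened and closed among those called in both libraries, 776 and 104, were 1393 and 303 with a pseudocount of 0.1, 401 and 31 with a pseudocount of 1, 4195 and 1418 with a 1.5-fold rule, 17 and 0 with a 4-fold rule, and 406 and 1856 with quantile normalization. Closed peaks were 32 with a mean of at least 3 FPKM, and 161 with quantile normalization over peaks called in both libraries, an alternative chosen after seeing the data. Over all compared peaks, opened and closed counts were 21492 and 10555 without a filter, 3273 and 761 with a mean of at least 3 FPKM, and 548 and 43 over peaks called in all 6 libraries, and gained and lost peaks were 20942 and 10548 without a filter and 2763 and 760 with a mean of at least 3 FPKM. The median change over peaks called in both, -0.020, was -0.022 (-0.0216 at a pseudocount of 0.1 and -0.0221 at a mean of at least 3 FPKM), -0.019 at a pseudocount of 1 and -0.013 when rescaled to peaks called in both. The median WT change over opened and closed peaks, 0.62 and -0.36, was 0.52 and -0.23 with a pseudocount of 0.1, 0.74 and -0.66 with a pseudocount of 1, 0.74 and -0.75 with a mean of at least 3 FPKM, and 0.37 and -0.21 with a 1.5-fold rule; a 4-fold rule gave 1.84 over opened peaks and left no closed peak. In runs of 100 peaks, the lowest and highest medians were -0.11 and 0.35. Among peaks called in both libraries, opened peaks outnumbered closed ones under every alternative run except quantile normalization over all compared peaks. The cause of the shifts between alternatives was not tested.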
